A study of Mus musculus with 18 samples.

Results

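The 8 genes described here are transcription factors and one inhibitor of such factors that are known from naive and central lymphocytes: Tcf7, Lef1, Bach2, Id3, Satb1, Foxo1, Foxp1 and Ets1. They were taken by gene name and are 8 of 46078 genes in the deposited tables. RNA was sequenced in bulk from Tregs (regulatory T cells, a CD4 lineage that depends on Foxp3 and dampens immune reactions), sorted from male Foxp3(DTR/GFP) mice aged 10 weeks. That allele, which all groups carried, links a diphtheria toxin receptor and a green fluorescent protein to Foxp3, so the sorted cells are those with an active Foxp3 gene. The study compared Tregs of 4 injured tissues with Tregs of healthy spleen.

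The bone group came from a defect of the skull bone, the muscle group from removal of part of the quadriceps, the skin group from punch wounds through the full skin, and the heart group from an infarct after ligation of the left coronary artery. Each of these 4 groups held 3 libraries from day 7 after injury, every library pooled from 3 mice. The spleen group held 6 libraries of uninjured mice, for which pooling is not stated. Neither uninjured tissue of these kinds nor spleen of injured mice was measured, so tissue and injury cannot be told apart. The libraries carried names in 2 styles, called Endo and Tregs here. The Endo style was that of spleen replicates 1 to 3, heart replicate 1 and every skin library, and the Tregs style that of the remaining libraries. Differences were adjusted for the style, which leaves bone and muscle compared with spleen replicates 4 to 6 and skin with spleen replicates 1 to 3. Total counts ran from 5970346 to 22635760 a library. Levels are given unadjusted, as CPM, the counts of a gene scaled to a common library size by TMM.

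Naive T cells keep their resting, recirculating state with a small set of DNA-binding proteins, and several of these are lost when T cells turn into effector cells. TCF1 (from Tcf7) and LEF1 bind the same DNA motif and act with beta-catenin or with Groucho corepressors, BACH2 competes with AP-1 factors at their sites, and ID3 holds E proteins off DNA. FOXO1 turns on genes for homing to lymphoid organs, FOXP1 keeps naive cells quiescent, SATB1 organises chromatin loops, and ETS1 is a broadly used T cell factor. In Tregs, a central population resembles naive T cells in these genes, and an effector population, to which most tissue Tregs belong, carries less of them.

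RefSeq promoter windows on GRCm38.p6, 250 bases before and 50 after a transcription start, were at hand for 7 of the 8 members, 17 windows in all. The 250 upstream bases are shown for Bach2, a member with the largest differences, and for Lef1 and Satb1, whose levels ran differently across the tissues, each at the most upstream start without an annotated exon in the window. Capitals mark matches to 5 searched motifs, read on both strands.
Bach2, chr4:32417185-32417434, plus strand, inside the annotated span of the gene: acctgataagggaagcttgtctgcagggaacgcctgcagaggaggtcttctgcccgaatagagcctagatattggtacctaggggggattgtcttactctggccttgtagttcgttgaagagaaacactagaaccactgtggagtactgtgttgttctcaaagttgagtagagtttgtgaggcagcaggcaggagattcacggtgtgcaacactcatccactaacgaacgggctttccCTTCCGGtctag
Lef1, chr3:131110047-131110296, plus strand, upstream of the gene: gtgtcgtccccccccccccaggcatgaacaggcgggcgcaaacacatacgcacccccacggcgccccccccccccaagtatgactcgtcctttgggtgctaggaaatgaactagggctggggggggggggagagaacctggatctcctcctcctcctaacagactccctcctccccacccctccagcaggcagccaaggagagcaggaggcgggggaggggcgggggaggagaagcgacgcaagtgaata
Satb1, chr17:51833291-51833540, minus strand, upstream of the gene: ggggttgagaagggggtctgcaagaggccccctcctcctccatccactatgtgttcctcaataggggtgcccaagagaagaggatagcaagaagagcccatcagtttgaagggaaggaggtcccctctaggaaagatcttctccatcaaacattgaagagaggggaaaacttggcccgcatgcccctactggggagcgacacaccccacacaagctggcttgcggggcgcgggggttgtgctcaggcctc
Tcf7, chr11:52282602-52282631, minus strand, 30 bases around a match: agctggagtcaCTTCCGGtgccctgacctt

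The Bach2 and Tcf7 sequences each hold the ETS motif CCGGAAG in its reverse form. That motif was found in 2 of the 17 member windows and in 6.91% of all 32817 windows of the same length. The E-box CAGCTG was found in 3 member windows, 1 each of Lef1, Satb1 and Tcf7, and in 13% of all windows. No member window held the TCF and LEF motif ATCAAAG (3.21% of all windows), the forkhead motif GTAAACA (3.16%) or the AP-1 and Bach motif TGAGTCA (4.46%). The spelled motifs do not contain each other, and these matches only describe the letters of the windows.

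Of the 8 members, 7 were lower than in spleen in each of the 4 injured tissues and none was higher, at an adjusted p under 0.05 (edgeR, quasi-likelihood F test, p adjusted by Benjamini-Hochberg over all genes tested). Ets1 did not pass in any tissue. In bone, 6.32% of all 15617 genes tested were lower and 8.48% higher, and the members' median log2 fold change was -1.10 beside 0.01 for all genes. In muscle 11.3% of genes were lower and 14.2% higher, with medians of -1.91 for the members and -0.01 for all genes. In skin 12.8% were lower and 15% higher, with medians of -1.52 and -0.07. In heart 8.46% of 15025 genes were lower and 11.8% higher, with medians of -1.02 and -0.03. Upper-quartile scaling moved the median of all genes in skin by -0.10, and turned the balance of calls in 3 tissues. It gave 1982 genes higher and 2044 lower in muscle in place of 2222 and 1762, 2026 and 2468 in skin in place of 2347 and 1995, and 1506 and 1643 in heart in place of 1772 and 1271. In bulk RNA, fewer cells that carry a gene and less of its RNA per cell cannot be told apart.

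**Figure D1:**
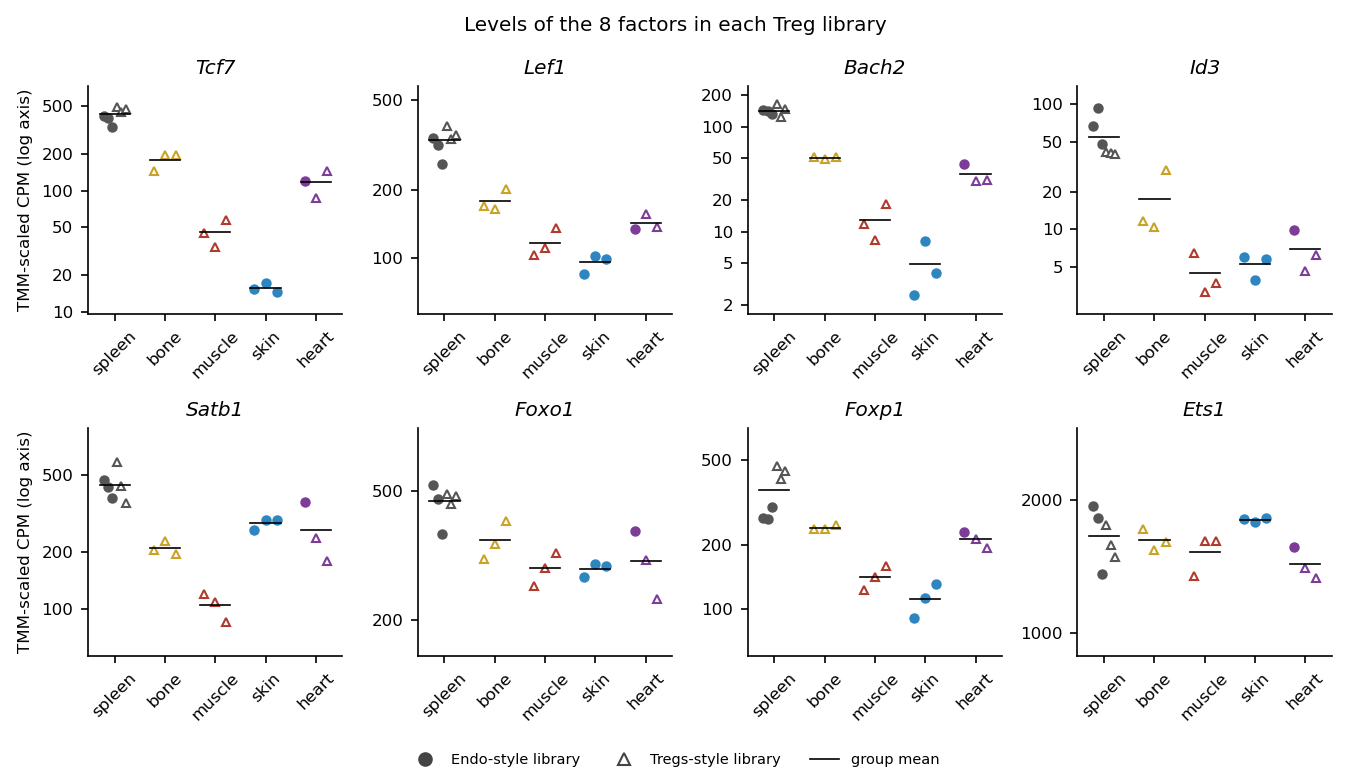
Level of each factor in every library, in TMM-scaled CPM on a log axis, by source of the Tregs (circles, Endo-style libraries; triangles, Tregs-style libraries; lines, group means). Tcf7 and Bach2 stepped down from spleen to bone and heart, then muscle, then skin, while Ets1 stayed between 1332 and 1935 in all 18 libraries.

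Tcf7, on chromosome 11 (52252371 to 52283014, minus strand, GRCm38), encodes TCF1. Its level in the 6 spleen libraries ran from 337 CPM, with a median of 431, to 488. It was 144, 198 and 198 in bone, 119, 87.6 and 146 in heart, 44.3, 34.0 and 57.0 in muscle, and 15.4, 17.4 and 14.4 in skin. Every library of an injured tissue lay below every spleen library, every muscle library below those of bone and heart, and every skin library below those of muscle. Bone and heart touched, with the highest heart library above the lowest of bone. Against spleen Tcf7 was 2.64-fold lower in bone (log2 -1.40, SE 0.16, adjusted p = 1.7e-06) and 3.69-fold lower in heart (log2 -1.88, SE 0.18, adjusted p = 6.8e-06). The difference was 10.5-fold in muscle (log2 -3.39, SE 0.18, adjusted p = 4.1e-12) and 24.7-fold in skin (log2 -4.63, SE 0.19, adjusted p = 2.4e-13). In skin Tcf7 ranked 163 from the lowest log2 fold change of 15617 genes.

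Lef1, on chromosome 3 (131110471 to 131224356, plus strand), encodes the close relative LEF1. Spleen libraries held 261 CPM at the lowest, 339 at the median and 385 at the highest. Bone libraries held 171, 166 and 203 CPM, heart 134, 158 and 138, muscle 104, 112 and 136, and skin 85.6, 103 and 99.5. All tissue libraries lay below all spleen libraries, but muscle overlapped heart in its highest library and came close to skin in its lowest. Lef1 was 2.03-fold lower in bone (log2 -1.02, SE 0.14, adjusted p = 1.6e-05), 2.38-fold in heart (log2 -1.25, SE 0.15, adjusted p = 3.7e-05), 3.09-fold in muscle (log2 -1.63, SE 0.14, adjusted p = 1.3e-08) and 3.24-fold in skin (log2 -1.70, SE 0.15, adjusted p = 5.0e-09).

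Within a library, the ratio of Tcf7 to Lef1 counts does not depend on how the libraries are scaled. This ratio was chosen after the levels were seen, and is given without a test. It was 1.22 to 1.33 in the 6 spleen libraries, with 1.22 to 1.29 in the Endo style and 1.27 to 1.33 in the Tregs style. Bone libraries had ratios of 0.844, 1.20 and 0.977, and heart libraries of 0.888, 0.555 and 1.06. In muscle the ratios were 0.425, 0.304 and 0.419, and in skin 0.180, 0.169 and 0.145. Spleen Tregs thus had more counts of Tcf7 than of Lef1, and muscle and skin Tregs more counts of Lef1 in all 6 libraries. Bone and heart libraries went either way. Annotated exons span 2625 bases in Tcf7 and 8788 in Lef1, so raw counts do not say which RNA was more abundant. Per kilobase of annotated exon, muscle held 17.2 ± 4.4 CPM of Tcf7 and 13.4 ± 1.9 of Lef1 (SD, n = 3). Skin held 6.00 ± 0.58 and 10.9 ± 1.0.

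**Figure D2:**
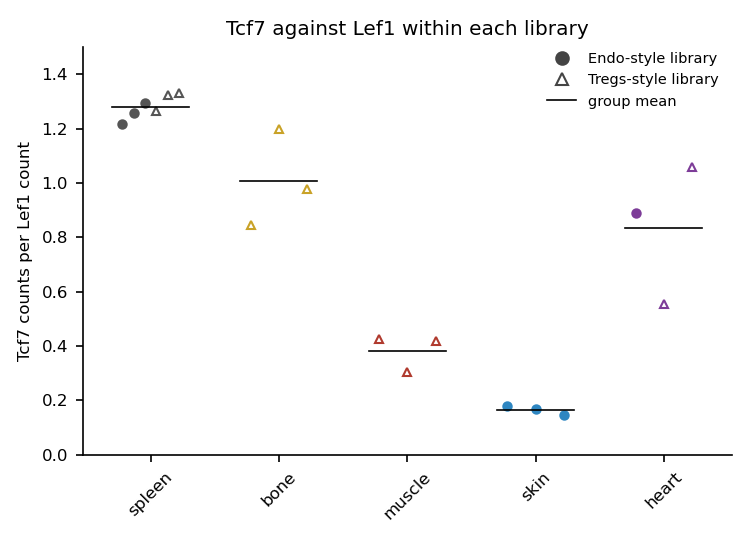
Counts of Tcf7 for each count of Lef1 in every library, by source (circles, Endo-style libraries; triangles, Tregs-style libraries; lines, group means). Spleen libraries sat between 1.22 and 1.33, muscle between 0.304 and 0.425, and skin between 0.145 and 0.180.

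Bach2, on chromosome 4 (32238804 to 32586108, plus strand), encodes a repressor that limits effector differentiation. Spleen libraries ran from 125 CPM through a median of 143 to 164. The levels were 51.1, 49.2 and 51.5 in bone, 44.4, 30.8 and 30.9 in heart, 11.9, 8.37 and 18.5 in muscle, and 2.49, 8.24 and 4.08 in skin. Bone libraries differed little from each other and lay above all of heart, heart lay above all of muscle, and the highest skin library was just below the lowest of muscle. Bach2 was 2.92-fold lower in bone (log2 -1.54, SE 0.27, adjusted p = 0.00065), 4.02-fold in heart (log2 -2.01, SE 0.17, adjusted p = 1.5e-06), 11.4-fold in muscle (log2 -3.51, SE 0.30, adjusted p = 1.4e-07) and 28.9-fold in skin (log2 -4.85, SE 0.33, adjusted p = 6.5e-09). The skin values rest on 27, 73 and 32 counts, and without skin replicate 2, the library with 73, the log2 fold change was -5.46. Bach2it1 and Gm24371, which overlap Bach2 on the same strand, drew 8.61% and 2.55% as many counts over all libraries and could share reads with it.

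Id3, on chromosome 4 (136143497 to 136145755, plus strand), encodes the inhibitor of E proteins, and GENCODE lists it as protein-coding where the deposited table has it as a processed transcript. Spleen libraries ran from 39.7 CPM through a median of 44.7 to 93.3, with the Endo-style libraries at 47.7 to 93.3 and the Tregs-style ones at 39.7 to 41.8. Bone libraries held 11.6, 10.5 and 29.8 CPM, heart 9.89, 4.64 and 6.22, muscle 6.40, 3.17 and 3.72, and skin 6.00, 3.95 and 5.74. Every tissue library lay below every spleen library, and heart, muscle and skin overlapped one another. Id3 was 2.43-fold lower in bone (log2 -1.28, SE 0.34, adjusted p = 0.014), 7.34-fold in heart (log2 -2.87, SE 0.23, adjusted p = 1.2e-06), 9.38-fold in muscle (log2 -3.23, SE 0.38, adjusted p = 3.6e-06) and 13.4-fold in skin (log2 -3.74, SE 0.39, adjusted p = 5.6e-07). Bone library c alone stood high, and without it the bone value was -1.90. Without bone replicate 1 or bone library b the bone call was lost (adjusted p = 0.074 and 0.067). In heart Id3 ranked 235 from the lowest of 15025 genes, ahead of Bach2 (503) and Tcf7 (574).

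Satb1, on chromosome 17 (51736187 to 51833290, minus strand), encodes the chromatin organiser. Spleen libraries ran from 357 CPM through a median of 435 to 586. The levels were 203, 226 and 195 in bone, 120, 109 and 86.2 in muscle, 259, 294 and 293 in skin, and 363, 235 and 179 in heart. Muscle lay lowest and skin stood above bone, an order not seen for the members above, and the Endo-style heart library fell within the spleen range. Satb1 was 4.44-fold lower in muscle (log2 -2.15, SE 0.17, adjusted p = 1.8e-09) and 2.25-fold in bone (log2 -1.17, SE 0.16, adjusted p = 1.5e-05). The difference was 1.72-fold in heart (log2 -0.78, SE 0.21, adjusted p = 0.018) and 1.54-fold in skin (log2 -0.62, SE 0.16, adjusted p = 0.0052). The heart call was lost without heart replicate 2 or 3 (adjusted p = 0.094 and 0.096) and without spleen replicates 1 and 2 (adjusted p = 0.054), and the skin call without spleen replicates 1 and 2 (adjusted p = 0.21). Genes annotated on the same strand inside its span could share reads with it. Over all libraries Gm36931, C230085N15Rik, Gm37248, E430014B02Rik and 5830444F18Rik drew 12.4%, 10.4%, 7.39%, 6.20% and 3.43% as many counts as Satb1.

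Foxo1, on chromosome 3 (52268336 to 52353221, plus strand), encodes the forkhead factor that PI3K and AKT signalling sends out of the nucleus. Spleen libraries ran from 367 CPM through a median of 476 to 521. Bone libraries held 308, 341 and 404 CPM, heart 375, 305 and 232, muscle 254, 290 and 321, and skin 271, 297 and 292. Muscle and skin lay below all of spleen, while 1 bone and 1 heart library reached into the spleen range. Foxo1 was 1.67-fold lower in muscle (log2 -0.74, SE 0.14, adjusted p = 0.00041), 1.60-fold in skin (log2 -0.68, SE 0.14, adjusted p = 0.00081), 1.53-fold in heart (log2 -0.61, SE 0.17, adjusted p = 0.021) and 1.38-fold in bone (log2 -0.46, SE 0.14, adjusted p = 0.030). The bone call was lost without any one of spleen replicates 4, 5 and 6, bone replicate 1 or bone library b (adjusted p of 0.065 to 0.15), with no filter on low counts (0.061) and in 1 fit of all 18 libraries (0.14). The heart call was lost without spleen replicate 4 or 5 or heart replicate 2 or 3 (adjusted p of 0.052 to 0.095), and the skin call without spleen replicates 1 and 2 (0.20).

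Foxp1, on chromosome 6 (98925338 to 99522721, minus strand), encodes a forkhead factor of quiescence and is protein-coding in GENCODE, though a processed transcript in the deposited table. Its spleen libraries fell apart by naming style, with 265 to 302 CPM in the Endo style and 409 to 471 in the Tregs style, although the style term over all libraries did not pass (adjusted p = 0.22). Bone libraries held 238, 237 and 247 CPM, heart 230, 212 and 193, muscle 123, 142 and 160, and skin 90.6, 112 and 131. Every tissue library lay below every spleen library, those of the same style included, and muscle and skin overlapped. Foxp1 was 3.16-fold lower in muscle (log2 -1.66, SE 0.14, adjusted p = 1.1e-08), 2.54-fold in skin (log2 -1.34, SE 0.14, adjusted p = 1.7e-07), 1.86-fold in bone (log2 -0.90, SE 0.14, adjusted p = 7.7e-05) and 1.72-fold in heart (log2 -0.78, SE 0.17, adjusted p = 0.0059). The heart call was lost without heart replicate 2 (adjusted p = 0.051).

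Ets1, on chromosome 9 (32636221 to 32757820, plus strand), had the highest level of the 8. Spleen libraries ran from 1361 CPM through a median of 1665 to 1935. The levels were 1719, 1539 and 1606 in bone, 1343, 1615 and 1616 in muscle, 1807, 1778 and 1817 in skin, and 1564, 1398 and 1332 in heart. All tissue libraries but 1 of muscle and 1 of heart lay within the spleen range. The log2 fold change was -0.01 in bone (95% interval -0.28 to 0.27), -0.09 in muscle (-0.37 to 0.18), 0.06 in skin (-0.22 to 0.34) and -0.20 in heart (-0.50 to 0.10), with adjusted p of 0.99, 0.68, 0.81 and 0.40. The value in skin moved with the setting and the spleen libraries. It was -0.04 with upper-quartile scaling, -0.08 without spleen replicate 3, 0.19 without spleen replicate 1 and 0.42 (adjusted p = 0.10) without spleen replicates 1 and 2.

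**Figure D3:**
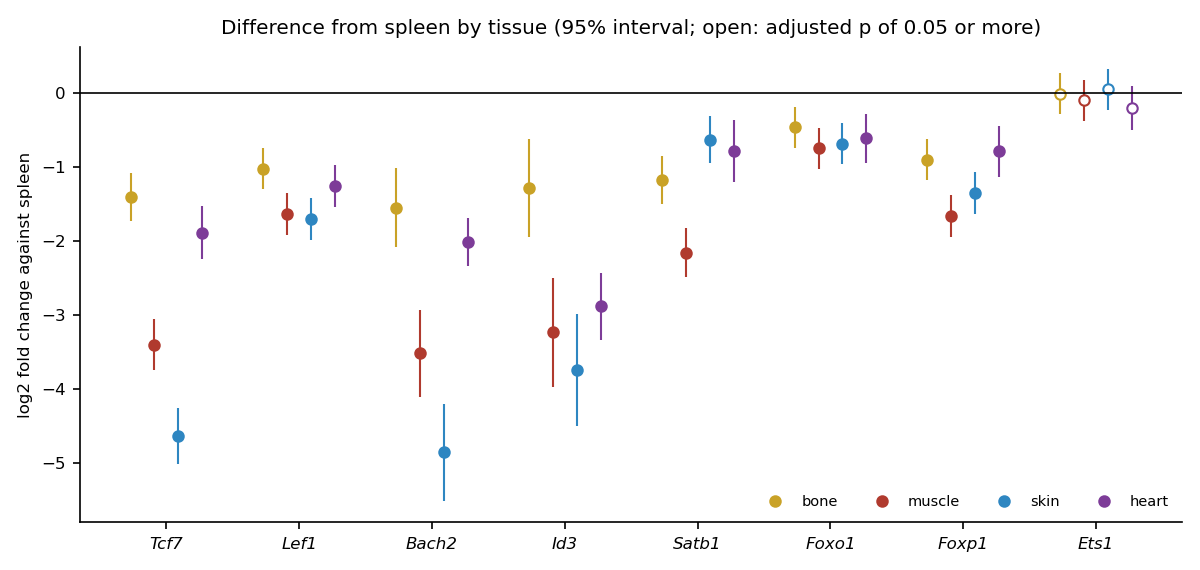
Log2 fold change of each factor in each injured tissue against spleen, adjusted for naming style, with 95% intervals from the standard error (filled points, adjusted p under 0.05). All points of Ets1 sit near 0, and those of Tcf7 and Bach2 reach -4.63 and -4.85 in skin.

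Set per kilobase of annotated exon, so that genes can be compared, spleen Tregs held most of Ets1 (195 ± 26 CPM per kb, SD, n = 6) and Tcf7 (162 ± 21). The ranges of 1 SD around these means overlapped. Foxo1 (53.5 ± 6.0) came next, apart from Tcf7 above and Lef1 (37.8 ± 4.7) below it. The ranges of Lef1, Id3 (30.7 ± 12), Foxp1 (26.2 ± 6.7) and Satb1 (23.3 ± 4.3) overlapped from each to the next, and Bach2 was lowest (14.3 ± 1.3). In skin Ets1 again led (212.5 ± 2.4 CPM per kb, n = 3), followed by Foxo1 (33.1 ± 1.6), Satb1 (14.8 ± 1.0), Lef1 (10.9 ± 1.0) and Foxp1 (8.09 ± 1.5). Tcf7, next to highest per kb in spleen, stood in skin at 6.00 ± 0.58, with only Id3 (2.92 ± 0.62) and Bach2 (0.497 ± 0.30) below it. Of their mean spleen level skin Tregs held 3.70% of Tcf7 and 3.47% of Bach2, and 61.8% of Foxo1.

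**Figure D4:**
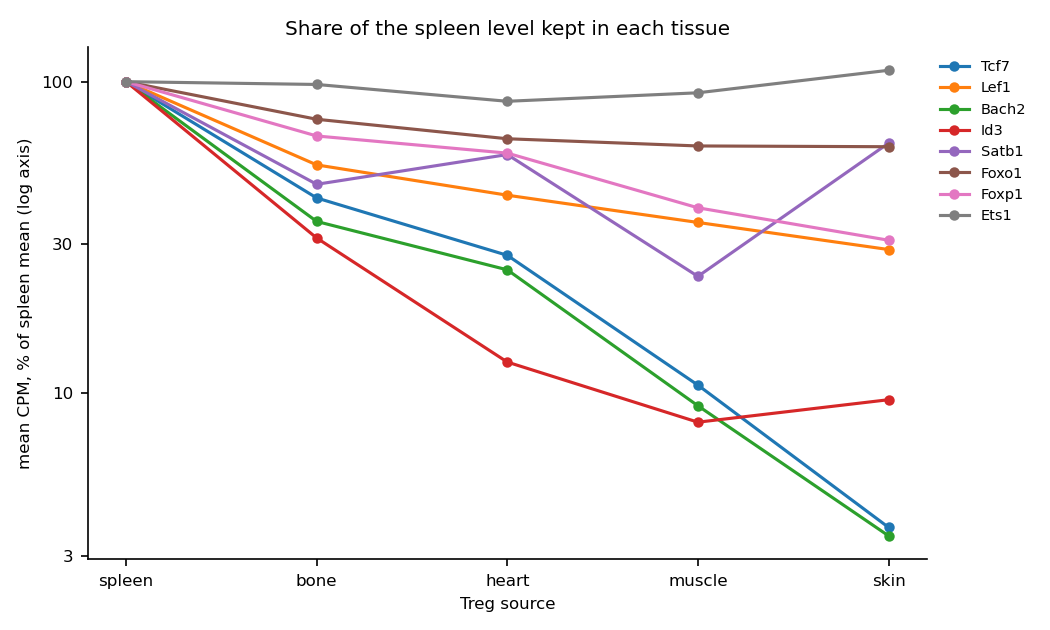
Mean level of each factor as a percentage of its spleen mean, not adjusted for naming style, on a log axis. The injured tissues are placed side by side and joined only to follow a gene. Bach2 and Tcf7 end at 3.47% and 3.70% in skin, Id3 is lowest in muscle at 8.05%, and Satb1 is lowest in muscle at 23.7% and 63.5% in skin. Adjusted for style, Id3 was 13.4-fold lower than spleen in skin and 9.38-fold in muscle. Skin and muscle did not pass against each other for Id3 (edgeR, quasi-likelihood F test, adjusted p = 0.77).

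Between the injured tissues, members were tested directly, with libraries of bone and muscle in 1 naming style and those of skin in the other. Muscle was lower than bone for 6 of 8 members, beside 2.57% of all genes lower: Tcf7 (log2 -2.0, adjusted p = 3.4e-07), Bach2 (-1.97, 0.00097), Id3 (-1.95, 0.0052), Satb1 (-0.98, 0.0011), Foxp1 (-0.76, 0.0028) and Lef1 (-0.61, 0.015). The Lef1 call was lost without bone library c or muscle replicate 1 or 2 (adjusted p of 0.059 to 0.095), and that of Foxp1 with no style term (0.051). Without bone library c the Id3 difference was -1.33. Skin was lower than bone for 4 members, beside 3.56% of genes (556 lower and 711 higher, or 672 and 560 with upper-quartile scaling): Bach2 (-3.31, 0.00013), Tcf7 (-3.23, 2.3e-08), Id3 (-2.46, 0.0050) and Lef1 (-0.68, 0.038). These differences also rest on the difference between spleen styles. That of Lef1 lost its call in 13 alternatives, with adjusted p up to 0.34, and that of Id3 without spleen replicates 1 and 2 (0.055). Without bone library c the Id3 difference was -1.84, and with no style term -1.70. Without skin replicate 2 the Bach2 difference was -3.91. Foxp1 missed the threshold (log2 -0.45, adjusted p = 0.18), although its skin libraries lay below those of bone. With no style term its value was -1.11 (adjusted p = 0.0011) and in 1 fit of all 18 libraries -0.72 (0.046).

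Skin and muscle differed in opposite directions for a pair of members. Tcf7 was lower in skin (log2 -1.23, SE 0.24, adjusted p = 0.0079), beside 0.621% of genes lower, and Satb1 was higher in skin (log2 1.53, SE 0.23, adjusted p = 0.0011), beside 0.692% higher. The Tcf7 call was lost with limma-voom (adjusted p = 0.075) and without spleen replicates 1 and 2 (0.087), while that of Satb1 passed in every alternative run. Skin and muscle share no naming style, so differences adjusted for style also rest on the difference between spleen styles. No alternative could compare skin and muscle within the same style. Bach2 missed the threshold (log2 -1.34, 95% interval -2.16 to -0.52, adjusted p = 0.15). It passed without skin replicate 2 (log2 -1.94, adjusted p = 0.0067), with no style term (0.015), with DESeq2 (0.031) and with no filter (0.00032).

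Between heart and bone a single member passed. Against bone Id3 was lower in heart (log2 -1.63, SE 0.36, adjusted p = 0.0086), beside 2.66% of genes lower. Without bone library c, the one with the high Id3 level, the value was -0.99 (adjusted p = 0.069), and without heart replicate 2 or the style term the call was lost too (0.058 and 0.069). Against muscle, 3 members were higher in heart, beside 0.358% of genes higher: Tcf7 (log2 1.45, adjusted p = 0.00074), Bach2 (1.40, 0.035) and Satb1 (1.22, 0.0073). The Bach2 call was lost without spleen replicate 2, without muscle replicate 1 or 2 and without any one heart library (adjusted p of 0.051 to 0.13), and also without spleen replicates 1 and 2 (0.073). That of Satb1 was lost without muscle replicate 3 (0.057). Against skin, Bach2 (log2 2.92, adjusted p = 2.4e-05) and Tcf7 (2.78, 3.6e-08) were higher in heart, beside 1.49% of genes higher. Without skin replicate 2 the Bach2 difference was 3.52. Foxp1 missed the threshold in heart against skin (log2 0.69, adjusted p = 0.053) and against muscle (0.74, 0.073). Against skin it passed with no style term (0.93, 0.0065), without spleen replicates 1 and 2 (0.81, 0.0095), and with no filter, DESeq2 or upper-quartile scaling (adjusted p of 0.014 to 0.047). It also passed there without spleen replicate 1, 2 or 4 or heart replicate 3 (adjusted p of 0.020 to 0.043), while without heart replicate 1, the Endo-style library, the value was 0.20 (0.79). Against muscle it passed with no filter (adjusted p = 0.0072), DESeq2 (0.013) and without heart replicate 3 (0.035). Lef1 passed in heart against skin with no style term (log2 0.58, adjusted p = 0.029), and Tcf7 in heart against bone with no filter (log2 -0.56, adjusted p = 0.046). Satb1 passed in skin against bone without spleen replicate 6 (log2 0.72, adjusted p = 0.049). Ets1 and Foxo1 passed in none of the 6 pairs of injured tissues.

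Across the 18 libraries, where those of a group share their tissue and, outside spleen and heart, their naming style, Tcf7 and Bach2 ran most alike of the members (Pearson r of log2 CPM = 0.98). Lef1 followed both (r = 0.94 with each), while Satb1 followed Tcf7 less closely (r = 0.53) and Ets1 not at all (r = -0.14). Of 11564 other protein-coding genes, those most like the mean of the 8 members were Actn1 (r = 0.96), an actin crosslinker, Slc44a2 (0.96), Celsr1 (0.95), H2-Ob (0.95) and Fam49a (0.95). The gene most like Tcf7 was Bcl2 (r = 0.99), which encodes an inhibitor of apoptosis, followed by Evl (0.99). Bcl2 was also the most like Bach2 (0.99), followed by Aff3 (0.98), and for Lef1 they were Actn1 (0.98) and St8sia6 (0.97). The next closest matches were Rcn1 and Rnf167 for Id3 (both 0.95), Cers6 and Il6st for Satb1 (both 0.89), Igf2r (0.90) and Elk4 (0.89) for Foxo1, and Gatad2b and Mtss1 for Foxp1 (both 0.96). For Ets1 the closest were Creb3 (0.83) and Ftl1 (0.82). Mean Bcl2 levels were 230 CPM in spleen, 86.2 in bone, 48.8 in heart, 15.8 in muscle and 5.38 in skin.

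Effector factors listed as opposed to the members or held down by them moved the other way. Whether the members act on them in these cells was not tested, and the list was chosen with earlier results of these data known. Id2 also counts among the paralogs below. Of 11 such effector factors 10 were higher than in spleen in bone, skin and heart, and 11 in muscle, and none was lower. Of all genes tested, 8.48% were higher in bone, 15% in skin, 11.8% in heart and 14.2% in muscle. Their median log2 fold change was 1.01 in bone, 1.49 in heart, 1.77 in muscle and 2.19 in skin. Tbx21, the T-bet gene, was the one that did not pass outside muscle (log2 0.38, 0.03 and 0.60 in bone, skin and heart). Id2, the sister gene of Id3, rose 5.15-fold in bone and 8.37-fold in muscle, with 12.9-fold in heart and 16.3-fold in skin. Its mean level went from 46.4 ± 11 CPM in spleen to 628 ± 158 in heart (SD, n = 6 and 3), while that of Id3 went from 55.0 ± 21 to 6.92 ± 2.7. Rora, a nuclear receptor gene, rose 4.76- to 9.33-fold, and Zeb2, a repressor gene, rose 4.57- to 8.74-fold.

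More target genes attributed to FOXO1 were lower than higher in each tissue, while Foxo1 itself was 1.38- to 1.67-fold lower. Whether FOXO1 acts on them in these cells was not tested, and this list too was chosen with earlier results of these data known. Of 13 targets measured, 4 were lower and 1 higher in bone, 7 and 1 in muscle, 8 and 4 in skin, and 7 and 2 in heart. The shares of all genes were 6.32% lower and 8.48% higher in bone, 11.3% and 14.2% in muscle, 12.8% and 15% in skin, and 8.46% and 11.8% in heart. The median log2 fold changes of the targets were -0.41, -0.85, -0.73 and -0.49. Klf3 fell 1.54- to 6.93-fold and Pik3ip1, an inhibitor of PI3K, 2.33- to 5.04-fold. Il7r, the interleukin-7 receptor gene, went against the list and rose in all 4 tissues (2.67-, 1.75-, 3.96- and 2.54-fold in bone, muscle, skin and heart). Irs2 rose in skin and heart (3.32- and 2.07-fold), and Cdkn1b and Ccng2 in skin (1.29- and 1.31-fold).

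Among 10 genes for partners and AP-1 competitors of BACH2, 3 were higher in bone, 5 in muscle, 6 in skin and 5 of 9 tested in heart. The shares of all genes higher were 8.48%, 14.2%, 15% and 11.8% in the same order. Fosl2 rose 5.77-fold in bone, 15.9-fold in heart, 8.87-fold in muscle and 24.8-fold in skin. Mafg, a small Maf partner, rose 1.91- to 2.09-fold, and Jund 1.53- to 2.38-fold. Jun was the one member of that list to fall, in muscle and skin (log2 -1.23 and -0.97).

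Related genes of the same families showed no common direction in muscle, skin and heart, and the few that passed in bone were higher. Of 22 paralogs tested in bone, 4 were higher and none lower. In muscle 6 were higher and 4 lower, in skin 5 and 5 of 22, and in heart 5 and 5 of 20. The shares of all genes were 8.48% higher and 6.32% lower in bone, 14.2% and 11.3% in muscle, 15% and 12.8% in skin, and 11.8% and 8.46% in heart. Ets2 rose 2.27- to 5.63-fold where Ets1 did not pass, and Foxp3, the lineage gene of Tregs, rose 1.71- to 1.92-fold where Foxp1 fell. Of 13 genes for cofactors of TCF1 and LEF1 and Wnt targets, 3 were higher in bone (Ctnnb1, Axin1 and Axin2, of which the first and the second were named after their values were seen). In muscle, skin and heart 2 were lower, Bcl9 and Bcl9l, coactivators of beta-catenin, with log2 fold changes of -0.97 and -0.69 in muscle, -1.82 and -1.50 in skin, and -1.07 and -0.74 in heart. That count of 2 in 13 lies near the 11.3%, 12.8% and 8.46% of all genes that were lower in these tissues. Of the 3 E proteins that ID3 binds, Tcf12 was lower in muscle (log2 -0.69, adjusted p = 0.00034) and no other passed in any tissue.

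**Figure D5:**
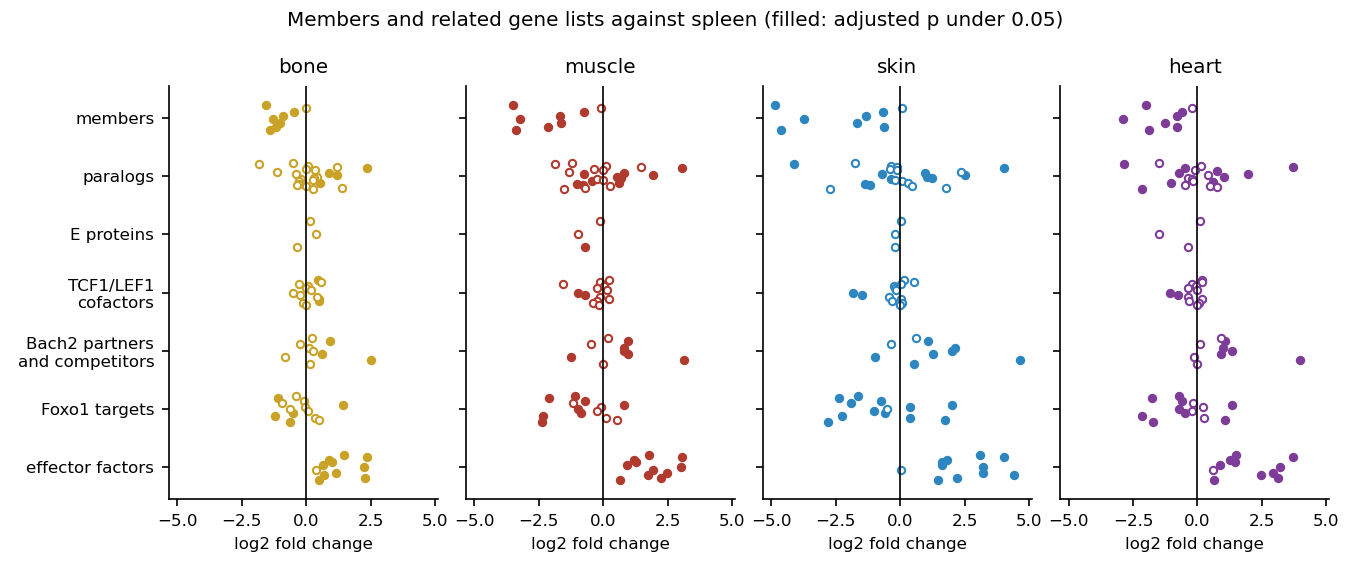
Log2 fold change against spleen of the 8 members and of the 6 related gene lists in each tissue, 1 point a gene (filled points, adjusted p under 0.05; Batf3, at 0 in spleen, is left out). Effector factors sit right of 0 in all panels with Tbx21 open in bone, skin and heart, and 7 members sit left of 0.

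Markers of the sorted cells were present in all libraries. The summed level of 7 Treg and T cell markers was 3772 to 4431 CPM in spleen and 5413 to 8195 in the injured tissues. Of the 7, 4 were higher in bone, muscle and skin (Foxp3, Il2ra, Ctla4 and Ikzf2), and the same without Ikzf2 in heart. The T cell markers Cd4 and Cd3g passed in no tissue, and Cd3e was lower in skin. Several members are also active in B cells. Few B cell markers were lower in bone and heart, and nearly all were lower in muscle and skin. The sum of 10 such markers was 50.2 to 137 CPM in spleen, 60.4 to 80.5 in bone, 20.8 to 62.8 in heart, 8.76 to 13 in muscle and 13 to 16 in skin. Of the 10, 2 were lower than in spleen in bone, 3 in heart, 10 in muscle and 9 in skin, and Ms4a1 was at 0 in all muscle libraries. Of all genes tested, 6.32% were lower in bone, 8.46% in heart, 11.3% in muscle and 12.8% in skin. In bone the sums lay within the spleen range. Genes of small RNAs took 9.47% to 14.8% of counts in spleen, 3.86% to 4.95% in bone and muscle, 5.09% to 10.6% in heart and 5.96% to 8.29% in skin. With those genes left out, 7 members were again lower in each tissue. Most red cell markers tested were lower in every tissue too, and a few macrophage markers in some. Of 4 erythroid markers tested, 3 were lower in bone, heart and skin and 4 in muscle, and the sum of 6 was 2.91 to 31.8 CPM in spleen, 0 to 2.15 in bone, 0 to 4.41 in heart, 0 to 0.331 in muscle and 0 to 0.383 in skin. Of 5 macrophage markers tested, 1 was lower in bone, 2 in muscle and 1 in skin, and none of 6 passed in heart. Spleen libraries had a macrophage sum of 19.7 to 27.8 CPM, heart of 4.49 to 52.3, bone of 10.1 to 16.1, skin of 3.05 to 14.5 and muscle of 3.97 to 13.6. No marker of CD8 T cells and NK cells passed in any tissue. What part these markers had in the differences of the members was not tested.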

How the data were processed

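The authors deposited raw counts per gene in 2 tables that share identical spleen columns, the first with bone, muscle and skin and the second with heart. Per the submitters' processing notes, reads were aligned to GRCm38, and STAR, featureCounts and limma are named. The sources used here give no versions, annotation release, strand setting or treatment of reads in overlapping genes. Libraries were made from 1 ng of RNA with the Ovation Solo kit, per the labels' protocols.

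Genes were filtered by filterByExpr, scaled by TMM and tested in edgeR 4.0.16 (R 4.3.3) by its robust quasi-likelihood method. P-values were adjusted by Benjamini-Hochberg over all genes, with a threshold of 0.05. Group and naming style were the model's terms. Bone, muscle and skin against spleen used 15 libraries, heart against spleen 9, and heart against other tissues all 18. Standard errors are the log2 fold change over the square root of F. The 95% intervals take a normal quantile of these errors, and are narrower than the F test itself would give. Levels are CPM with TMM scaling. Bone columns b and c match the bone group, and no label ties either to replicate 2 or 3. Positions and exon lengths come from GENCODE M21, which matched 45143 of 46078 genes, and promoter sequences from RefSeq (GRCm38.p6).

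The members and gene lists were chosen with earlier results of these data known. All 8 members are named. Of each related list at most 3 genes are named, those that passed in most comparisons with spleen (ties by the larger mean change), with any opposite to most of the list. A gene that this rule names among the FOXO1 targets is not reported here. Likeness is Pearson r over all libraries, for 5 genes against the mean of the members and 2 against each member. Nothing says whether spleen libraries came from separate mice, so p-values measure only the spread between these libraries. Spleen libraries held 5970346 to 15756884 counts in total, heart 11139361 to 12974890, skin 8375212 to 11907745, bone 11588253 to 22635760 and muscle 11582403 to 13358526.

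Alternatives left out the style term, the other style, small RNA genes, spleen replicates 1 and 2 or each library in turn. Others used scaling by RLE or by the upper quartile, DESeq2 1.42.0, limma-voom (limma 3.58.1), a replicate block, no filter, a filter of CPM above 1 in 3 libraries, 1 fit of all libraries, CPM per library total, or rank and group-mean likeness. A fit of heart with only Tregs-style libraries was added after the data were seen.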

Additional observations from a re-analysis of the deposited data

Results flagged for a closer look

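Differences of the members between injured tissues that passed in edgeR's quasi-likelihood test are given here as log2 fold changes. Those with heart come from the fit of all 18 libraries, and the others from the fit of 15. Comparisons that share a tissue are not independent of each other. Between muscle and bone they were -2.0 for Tcf7, -1.97 for Bach2, -1.95 for Id3, -0.98 for Satb1, -0.76 for Foxp1 and -0.61 for Lef1, all lower in muscle. Between skin and bone they were -3.31 for Bach2, -3.23 for Tcf7, -2.46 for Id3 and -0.68 for Lef1, all lower in skin. Between skin and muscle Tcf7 differed by -1.23 and Satb1 by 1.53. Between heart and bone Id3 differed by -1.63. Between heart and muscle Tcf7 differed by 1.45, Bach2 by 1.40 and Satb1 by 1.22, and between heart and skin Bach2 differed by 2.92 and Tcf7 by 2.78. No spleen library stood apart by Dixon's criterion for any of the 8 members.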

How the results depend on the processing

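Of 80 pairs of a member and a comparison, 46 passed; 31 of these passed under every alternative run, 15 lost the call in at least 1 and none turned direction, while 7 of 34 that had missed it passed in at least 1. Of the 28 calls against spleen 21 held throughout, and of the 18 between injured tissues 10. Pairs that missed the threshold in both fits have no called direction and were counted as unchanged. The cause of the shifts below was not tested.

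Same-numbered libraries did not deviate together (r of -0.13 to 0.10 over 18 pairs). The deviations were taken from the means of small groups and were not adjusted for style, so they cannot tell whether the numbers pair the samples. Spleen libraries came from uninjured mice and cannot be paired by mouse with injured tissue. The replicate block took the place of the style term. Numbers 4 to 6 occur in spleen alone, so the block compared tissues with spleen replicates 1 to 3, all of the Endo style. With the replicate block 7 members were lower than in spleen in muscle and in skin, and 5 in heart. Foxo1 (adjusted p = 0.070) and Foxp1 (0.21) lost their calls in heart. With the block Bach2 in heart against muscle lost its call (adjusted p = 0.19), leaving 2 members higher. In heart against skin Foxp1 (0.0026) and Lef1 (0.049) passed. The block gave 4 members higher and 806 genes called for heart against skin and 1090 genes for skin against muscle. It changed the log2 fold change of Foxp1 in muscle against spleen from -1.66 to -1.0. The mean Foxp1 level was 278 CPM in the Endo-style spleen libraries and 441 in the Tregs-style ones. No replicate block could be fitted for bone.

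Members lower or higher: without the style term none was lower in heart than bone, 4 were higher in heart than skin and 2 lower in skin than muscle. For skin against muscle, DESeq2 and no filter gave 2 lower, limma-voom and leaving out spleen replicates 1 and 2 gave 0; no filter gave 2 lower in heart than bone. Without spleen replicates 1 and 2, 2 were lower in skin than bone, and 5 in skin and 6 in heart against spleen. Leaving out 1 library gave 0 to 1 lower in heart than bone, 4 to 7 in heart and 5 to 7 in bone than spleen, 1 to 2 in skin than muscle, and 0 to 1 higher in skin than bone.

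All genes called: for muscle against bone 759, but 493 in 1 fit of 18 libraries, 1270 with DESeq2, 1191 with no filter and 432 with no style term. For skin against muscle 205, but 115, 414, 618 and 749 in the same order, 75 with limma-voom and 126 without spleen replicates 1 and 2. For heart against bone 1064, but 1607 with DESeq2. For heart against muscle 72, but 211 with DESeq2 and 380 with no filter. For heart against skin 379, but 661 with DESeq2, 909 with no filter, 742 with no style term and 638 without spleen replicates 1 and 2. For skin against bone 1267, but 843 with limma-voom, 2814 with no style term and 705 without those replicates, which also gave 2548 in place of 4342 for skin against spleen. Leaving out 1 library gave 429 to 1115 for heart against bone, 27 to 104 for heart against muscle, 205 to 522 for heart against skin, 256 to 1040 for muscle against bone, 777 to 1705 for skin against bone and 101 to 528 for skin against muscle.

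Of 40 group means, 34 moved by less than 1 SD with CPM per library total and 6 by more. Among the alike genes rank correlation was 0.82 to 0.98 and r of group means 0.92 to 1.00. Depth limits Bach2 and Id3 most, with 27 to 73 counts of Bach2 in skin libraries and 35 to 76 of Id3 in those of skin and muscle.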
